A study of Mus musculus with 6 samples.

Results

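The interleukin-6 (IL-6) family genes examined here were 5 cytokines (Il6, Lif, Il11, Clcf1 and Ctf1) and 5 receptor genes (Il6st, Il6ra, Lifr, Osmr and Il11ra1), picked by gene symbol from a fixed list of family members that was drawn up with earlier results of these data known. They were 10 of 43043 genes listed in each sample, and 9 of them were among the 14419 genes with enough reads to be tested. RNA was sequenced from D4M-3A, a mouse melanoma cell line with mutant Braf, to ask what constitutive IκBζ (encoded by Nfkbiz) does in these cells. The 3 Ctrl samples were untreated D4M-3A cells that had received an empty CRISPR construct by lentivirus, and the 3 Nfkbiz KO samples were the same cells with a CRISPR-Cas9 construct against Nfkbiz, all grown in RPMI medium with serum. The study describes 3 independent experiments per condition. Whether the knockout cells were a clone or a pool, and whether each experiment used its own transduction, was not given in the sources used here, so p-values measure the spread between these samples, and the effect of DNA cutting, which the empty construct lacks, cannot be told apart from that of Nfkbiz.

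Cytokines of this family signal through gp130, the shared receptor chain encoded by Il6st. IL-6 and IL-11 first bind a ligand-specific chain (IL-6Rα or IL-11Rα) that recruits a gp130 homodimer. LIF and cardiotrophin 1 instead use gp130 together with the LIF receptor. Oncostatin M uses gp130 with the oncostatin M receptor (Osmr). The receptors activate JAK kinases and mainly STAT3, and Socs3 is a feedback inhibitor of the same complex. IκBζ is a nuclear protein that works with NF-κB subunits on promoters, and Il6 is a known target of it in immune cells.

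Sequencing depth was 32219900 to 44927203 reads assigned to genes per sample, with 96.5 to 96.9% mapped to a single place. Nfkbiz itself was at 69.1, 75.2 and 63.4 TPM (a level scaled to transcript length and library size) in Ctrl and at 34.8, 34.7 and 35.1 TPM in Nfkbiz KO. Its RNA fell by 0.98 on the log2 scale (SE 0.056, adjusted p = 6e-08, edgeR). All 3 knockout samples lay below all controls, but this RNA level does not measure the protein that is left. For the protein, the study reports an immunoblot of IκBζ in control and knockout D4M-3A cells as its check of the depletion. Of 8 melanocyte lineage markers, 3 (Sox10, Tyr and Kit) had no read in any sample, and the summed level of the list was 1.11 to 1.74 TPM in Ctrl and 1.27 to 1.68 TPM in Nfkbiz KO. Defining melanocyte genes were thus largely absent from these cells labelled as melanoma. The summed level of 8 immune markers was 1.83 to 2.57 and 1.84 to 4.14 TPM in the same order, with Cd3e and Ncr1 at 0 reads. The 4 endothelial markers summed to 0.55 to 0.827 and 1.32 to 1.85 TPM. Most of that difference was Cdh5, with means of 0.548 and 1.54 TPM. Pecam1 was at 0.0984 and 0.0724, Tek at 0.0295 and 0.0135, and Kdr at 0.00359 and 0.0232 TPM. The 5 fibroblast markers summed to 582 to 657 and 475 to 512 TPM. Most of that sum was Col1a1, with means of 367 and 263 TPM, and Col1a2, with 203 and 187 TPM. Dcn was at 15 and 9.38, Pdgfra at 36.7 and 39.5, and Lum at 0 and 0.0151 TPM. All samples were cultures of a single cell line. The part of these marker lists in the results below was not tested, and in bulk samples fewer cells of a type and less RNA per cell cannot be told apart.

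The family changed unevenly. Il6 and Osmr fell, Il11 rose, and Lif, Il6ra, Il11ra1 and Lifr fell by less than 2-fold, while Il6st and Clcf1 did not pass the test and Ctf1 was too low to test. The calls of Lifr and Il11ra1 were lost in 11 and 6 of 13 alternative fits, described below. In numbers, 7 of 9 tested members had an adjusted p of 0.05 or less, beside 36.6% of all tested genes. Of these, 1 was higher in Nfkbiz KO, where 18.2% of all genes were higher, and 6 were lower, where 18.4% were lower. Il6, Il11 and Osmr also changed more than 2-fold, which 5.92% of tested genes did with that adjusted p. The study also set a difference cut-off of 4 without a stated unit, taken here as a difference of group means in TPM. With this cut-off added, 2 members (Il6 and Il11) remained, beside 1.79% of all genes. The normalised read counts of the 2 groups did not overlap for 7 of 9 members, as for 48.4% of all genes. The median log2 fold change was -0.36 over the 9 members and -0.02 over all tested genes. With 3 samples against 3, an exact permutation test of 1 gene cannot give a p below 0.1, so the p-values here come from the edgeR quasi-likelihood fit across all genes with Benjamini-Hochberg adjustment.

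**Figure D1:**
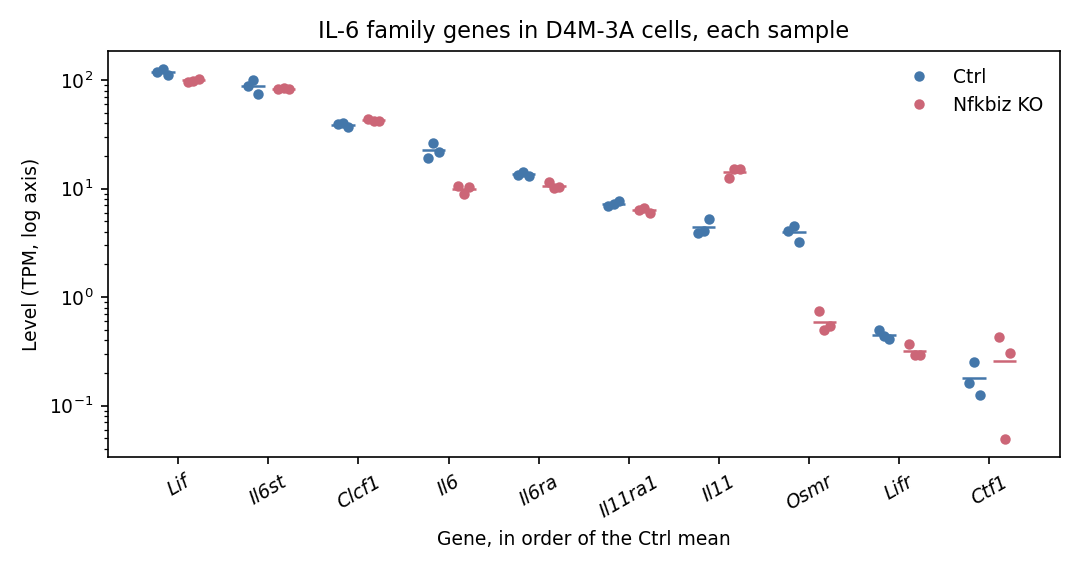
Level of each of the 10 genes in TPM (log axis) in the 3 Ctrl (blue) and 3 Nfkbiz KO (red) samples; points are samples and horizontal lines are group means. Il6 and Osmr lie lower and Il11 higher in all 3 Nfkbiz KO samples, while the Il6st samples overlap and Ctf1 rests on 1 to 7 reads.

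The order of the levels, read in TPM and so per transcript length, differed between the groups in its middle. In Ctrl cells Lif was highest, with a mean of 119 TPM, followed by Il6st at 87.3, Clcf1 at 38.9, Il6 at 22.6, Il6ra at 13.6 and Il11ra1 at 7.25 TPM. Il11 at 4.42 and Osmr at 3.95 TPM came next with overlapping ranges, and Lifr at 0.447 and Ctf1 at 0.179 TPM were lowest. In Nfkbiz KO cells Lif, Il6st and Clcf1 kept the top ranks at 99.6, 83.2 and 42.5 TPM. Il11 came next at 14.3 TPM, above Il6ra at 10.6 and Il6 at 9.97 TPM, whose ranges overlapped. Below Il11ra1 at 6.32 TPM, Osmr at 0.595 TPM was close to Lifr at 0.319 TPM, and the ranges of Lifr and Ctf1 (0.26 TPM) overlapped.

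Il6 encodes the inflammatory cytokine that gave the family its name (chr5:30218112-30224979, plus strand, GRCm39). Its level was 19.3, 26.5 and 21.9 TPM in the 3 Ctrl samples and 10.6, 8.97 and 10.4 TPM in the 3 Nfkbiz KO samples, from 531 to 751 and 238 to 349 reads. Every Nfkbiz KO sample lay below every Ctrl sample. The log2 fold change was -1.28 (SE 0.11, 95% interval -1.52 to -1.05, adjusted p = 1.4e-06, edgeR), or 2.44-fold lower, and it ranged from -1.37 to -1.19 as each sample was left out. A lncRNA, Gm42450, is annotated on the other strand over the whole gene and had 0 to 1 reads. The 3 genes with the closest profiles over the 6 samples, among 11884 genes compared by the distance of centred log2 values, were Ankrd1 (distance 0.196, r = 0.993), Pdk1 (0.225, r = 0.993) and G930009F23Rik (0.237, r = 0.990). These profiles are largely a difference between 2 groups that share libraries, so many genes can match them.

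Il11, on chr7:4775372-4785858 (minus strand), encodes a cytokine known for its roles in fibroblasts and bone that shares gp130 with IL-6. It was listed at 3.92, 4.05 and 5.27 TPM in Ctrl and at 12.6, 15.1 and 15.2 TPM in Nfkbiz KO, from 104 to 165 and 250 to 456 reads. The groups were far apart, and Il11 was the single member that rose. Its log2 fold change was 1.47 (SE 0.15, 95% interval 1.15 to 1.79, adjusted p = 7.7e-06, edgeR), or 2.77-fold higher, with a range of 1.39 to 1.62 on leaving out samples. The nearest profiles were those of Evi2a (distance 0.316, r = 0.989), the chemokine gene Ccl5 (0.336, r = 0.985) and the interferon-induced gene Ifit3b (0.36, r = 0.988). As for Il6, such profiles are largely a difference between the groups, so many genes can match them, and a shared regulation was not tested.

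Set against each other within a sample, the 2 cytokines that share the gp130 homodimer exchanged ranks. The ratio of Il6 to Il11 TPM was 4.93, 6.55 and 4.16 in Ctrl and 0.842, 0.594 and 0.683 in Nfkbiz KO. Il6 was therefore the more abundant transcript in every Ctrl sample, and Il11 in every Nfkbiz KO sample. Over the 5 cytokines together, the summed level was 182, 197 and 176 TPM in Ctrl and 164, 165 and 171 TPM in Nfkbiz KO. Lif supplied most of this sum in every sample, 63.2 to 65.6% in Ctrl and 59 to 60.4% in Nfkbiz KO. The share of Il6 was 10.6, 13.5 and 12.5% in Ctrl and 6.46, 5.43 and 6.08% in Nfkbiz KO, and that of Il11 was 2.15, 2.06 and 3% and then 7.66, 9.14 and 8.89%. These shares describe RNA and carry no test of their own.

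**Figure D2:**
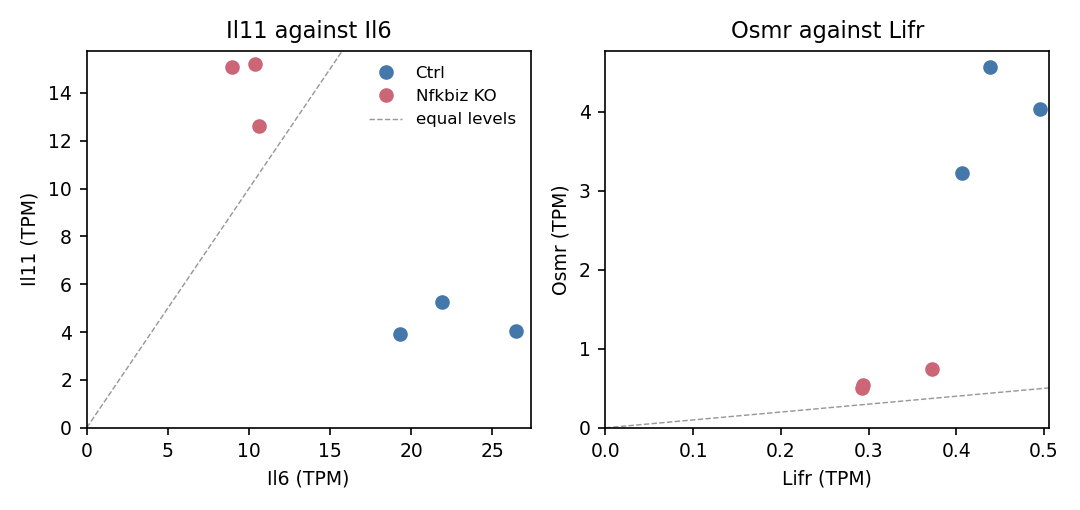
Il11 against Il6 (left) and Osmr against Lifr (right) in TPM on linear axes, each point being 1 sample of Ctrl (blue) or Nfkbiz KO (red); dashed lines mark equal levels. The 3 Ctrl samples lie below the line on the left and the 3 Nfkbiz KO samples above it, and on the right Osmr drops towards the line in Nfkbiz KO with ratios of 1.7 to 2.

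Lif encodes leukemia inhibitory factor, which keeps mouse embryonic stem cells undifferentiated, and lies on chr11:4207557-4222514 (plus strand). Its level was 120, 126 and 111 TPM in Ctrl and 96.7, 98.9 and 103 TPM in Nfkbiz KO. The groups did not overlap, but the difference was small, with a log2 fold change of -0.36 (SE 0.052, 95% interval -0.47 to -0.25, adjusted p = 1.7e-04, edgeR). Clcf1, a cytokine also known as cardiotrophin-like cytokine (chr19:4264292-4273546, plus strand), was at 39.3, 40.2 and 37.2 TPM in Ctrl and 43.7, 42.1 and 41.8 TPM in Nfkbiz KO. The TPM values of the groups did not overlap, whereas the normalised read counts did, and the log2 fold change was 0.01 (95% interval -0.11 to 0.13, adjusted p = 0.91, edgeR). Of its reads, 76.4% mapped to a single place. Gm45928, annotated over 98.7% of the gene on the same strand, was given 27 to 41 reads, so the split of reads there is uncertain. With uniquely mapped reads alone, the log2 fold change of Clcf1 was 0.03 (adjusted p = 0.75, edgeR). Ctf1, the cardiotrophin 1 gene (chr7:127311859-127317916, plus strand), had 5 reads in each Ctrl sample and 7, 1 and 7 reads in Nfkbiz KO. At this depth, where 3 reads equal 0.0668 to 0.0931 CPM (reads scaled to library size), a difference in Ctf1 was not detectable.

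Osmr, which encodes the oncostatin M receptor chain (chr15:6843053-6904450, minus strand), had the largest change of the tested members. It was at 4.04, 4.57 and 3.23 TPM in Ctrl and at 0.744, 0.498 and 0.543 TPM in Nfkbiz KO, from 574 to 707 and 81 to 103 reads. The lowest Ctrl value was several times the highest Nfkbiz KO value. The log2 fold change was -2.82 (SE 0.13, 95% interval -3.11 to -2.52, adjusted p = 1.2e-08, edgeR), or 7.04-fold lower, and -2.94 to -2.72 on leaving out samples. On the log2(TPM + 1) scale, which compresses low values, it was -1.63. The difference of means was -3.35 TPM, so Osmr missed the difference cut-off of 4, when taken as TPM, despite its fold change.

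Lifr encodes the neighbouring receptor on the same chromosome (chr15:7120095-7226970, plus strand), and it was low throughout. Its level was 0.496, 0.438 and 0.407 TPM in Ctrl and 0.372, 0.292 and 0.294 TPM in Nfkbiz KO, from 57 to 60 and 35 to 42 reads. The groups did not overlap, but the log2 fold change of -0.66 (SE 0.23, 95% interval -1.15 to -0.16) had an adjusted p of 0.038 in edgeR that rose above 0.05 in 11 of 13 alternative fits, among them all 6 that left out a sample (0.053 to 0.12) and the replicate block (0.059). The ratio of Osmr to Lifr was 8.14, 10.4 and 7.93 in Ctrl and 2, 1.7 and 1.85 in Nfkbiz KO. Both receptors thus drew close in level in Nfkbiz KO, with Osmr still above Lifr in every sample.

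Il6st, the gp130 gene (chr13:112600604-112646620, plus strand), was the most abundant receptor transcript. It was at 88.4, 99.7 and 74.0 TPM in Ctrl and at 82.4, 84.2 and 83.1 TPM in Nfkbiz KO, and the Nfkbiz KO samples fell within the Ctrl range. The log2 fold change was -0.16 (SE 0.070, 95% interval -0.31 to -0.01, adjusted p = 0.092, edgeR). Without Ctrl replicate 3, the lowest in TPM, it was -0.24 with an adjusted p of 0.00049, so the call rests on that sample. The ratio of Il6st to Osmr was 21.9, 21.8 and 22.9 in Ctrl and 111, 169 and 153 in Nfkbiz KO.

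Il6ra encodes the ligand-binding IL-6 receptor chain (chr3:89771366-89820719, minus strand) and was at 13.3, 14.2 and 13.2 TPM in Ctrl and 11.4, 10.1 and 10.4 TPM in Nfkbiz KO. It fell in each alternative fit, with a log2 fold change of -0.43 (SE 0.062, 95% interval -0.57 to -0.30, adjusted p = 1.6e-04, edgeR). Il11ra1, the IL-11 receptor chain gene (chr4:41699989-41769485, plus strand), was at 6.85, 7.25 and 7.67 TPM in Ctrl and 6.35, 6.58 and 6.02 TPM in Nfkbiz KO. Its log2 fold change of -0.33 (SE 0.098, 95% interval -0.54 to -0.11) had an adjusted p of 0.02 in edgeR, which rose above 0.05 in 6 of 13 alternative fits. These included the fits without Ctrl replicate 3 (0.067) and without Nfkbiz KO replicate 1, 2 or 3 (0.052, 0.053 and 0.084). Of Il11ra1 reads, 85.8% mapped to a single place, and its annotated span overlaps Galt on the same strand and Dctn3 on the other, so some of its reads may belong to these genes. The near-identical gene Il11ra2 had no read in any sample. Il11ra1 thus lay lower, in TPM, in each of the 3 samples in which Il11 lay higher.

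**Figure D3:**
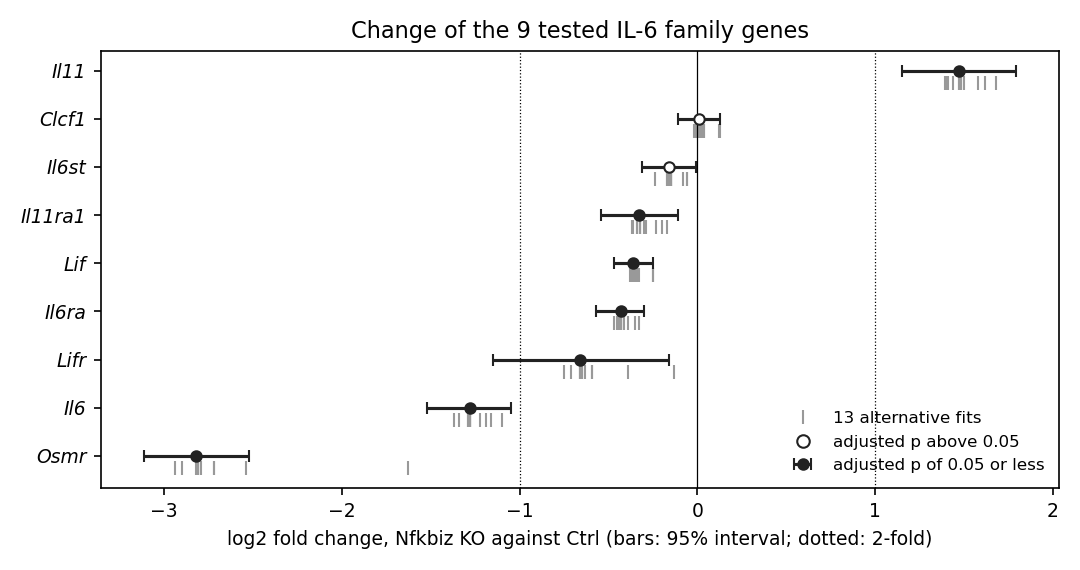
The log2 fold change of Nfkbiz KO against Ctrl for the 9 tested members (points, with 95% intervals) and under 13 alternative fits (grey ticks); filled points have an adjusted p of 0.05 or less and dotted lines mark 2-fold. Il11, Il6 and Osmr lie past 2-fold in the main fit, and the grey tick of Osmr at -1.63 is the log2(TPM + 1) scale.

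The promoters of the 3 members that changed more than 2-fold are shown because Il6 and Osmr fell where Il11 rose. RefSeq windows of 250 bases before and 50 from the start site on, defined on GRCm38.p6, were held for 9 of 10 members (none for Clcf1), and all 12 windows matched GRCm39 at a single place. They were searched on both strands for GGGNNNNNCC (NF-κB), TGANTCA (AP-1), TTCNNNGAA (STAT), TTGCNNAA (C/EBP) and TGACGTCA (CRE). Capitals mark the matches, which may overlap. The Il6 window is chr5:30217862-30218161 (plus strand), the Osmr window chr15:6903745-6904044 (minus strand), and the Il11 windows chr7:4781091-4781390 and chr7:4785807-4786106 (minus strand), each 5′ to 3′ on the strand of its gene.
Il6: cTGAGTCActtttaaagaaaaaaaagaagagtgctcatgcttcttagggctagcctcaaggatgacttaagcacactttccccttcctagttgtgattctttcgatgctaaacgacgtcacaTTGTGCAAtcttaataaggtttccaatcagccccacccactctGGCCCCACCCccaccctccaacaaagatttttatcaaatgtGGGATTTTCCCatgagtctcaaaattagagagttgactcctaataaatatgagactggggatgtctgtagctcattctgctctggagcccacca
Osmr: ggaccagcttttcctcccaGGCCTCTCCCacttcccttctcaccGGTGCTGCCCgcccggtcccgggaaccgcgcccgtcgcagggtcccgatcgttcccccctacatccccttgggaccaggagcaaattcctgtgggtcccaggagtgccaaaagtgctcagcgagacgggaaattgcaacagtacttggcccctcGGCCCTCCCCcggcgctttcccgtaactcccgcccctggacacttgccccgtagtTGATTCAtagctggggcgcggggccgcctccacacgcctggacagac
Il11, window 1: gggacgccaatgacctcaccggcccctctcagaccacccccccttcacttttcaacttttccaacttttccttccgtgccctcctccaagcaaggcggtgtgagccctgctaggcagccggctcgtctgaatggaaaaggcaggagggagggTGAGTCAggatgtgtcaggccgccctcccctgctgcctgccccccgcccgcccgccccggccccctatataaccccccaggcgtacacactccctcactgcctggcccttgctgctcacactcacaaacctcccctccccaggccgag
Il11, window 2: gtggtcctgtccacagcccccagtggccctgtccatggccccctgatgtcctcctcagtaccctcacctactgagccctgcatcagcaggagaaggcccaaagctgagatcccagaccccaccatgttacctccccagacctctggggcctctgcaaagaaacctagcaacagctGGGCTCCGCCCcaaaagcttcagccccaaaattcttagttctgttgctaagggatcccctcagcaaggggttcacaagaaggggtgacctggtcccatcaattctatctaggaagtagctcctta

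The Il6 window held 3 NF-κB matches, 1 AP-1 match and 1 C/EBP match. GGGATTTTCC began 44 bases before the start site, and its exact letters were in 0.0791% of 32851 mouse windows, while the loose NF-κB pattern was in 50.8% of them. Exact letters are always rarer than a loose pattern that includes them. The other Il6 NF-κB matches, GGATTTTCCC and GGCCCCACCC, were in 0.0883% and 0.773% of windows. Those of Osmr were in 0.161 to 0.423%, and those of Il11 in 0.694% and 2.16%. The AP-1 match TGAGTCA began 249 bases before the Il6 start, and the C/EBP match, TTGTGCAA as read on the gene's strand, 128 bases before it. Osmr held 3 NF-κB matches, beginning 231, 206 and 52 bases before its start, and the AP-1 match TGATTCA from 3 to 9 bases past it. In Il11, window 1 held TGAGTCA from 98 bases before the start and no NF-κB match, and window 2 held 2 overlapping NF-κB matches from 75 bases before the start. AP-1 letters occurred in 7.81% of all windows, C/EBP in 10.8%, STAT in 8.3% and CRE in 1.79%, and neither STAT nor CRE letters were found in any member's window. A match describes letters and not binding. Among the members lower in Nfkbiz KO, Il6, Osmr and Lif held NF-κB and AP-1 letters. Il6ra, Lifr and Il11ra1 held NF-κB letters but no AP-1 letters. Il11, which rose, held the NF-κB and AP-1 letters in separate windows. Whether such letters bear on the changes was not tested.

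**Figure D4:**
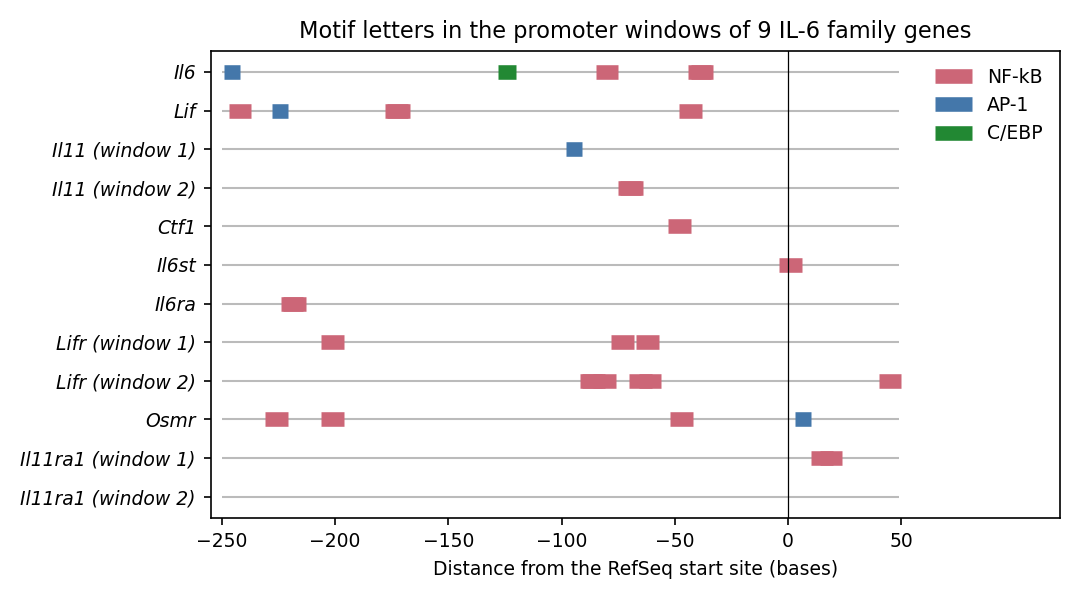
Positions of NF-κB (red), AP-1 (blue) and C/EBP (green) letters in the 12 promoter windows of 9 members, as distance in bases from the RefSeq start site (vertical line). Il6 carries all 3 kinds, Osmr and Lif carry NF-κB and AP-1 letters, and Il11 has them in separate windows.

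Partners of these members among 11 other IL-6 family genes were mostly silent. Osm, Ebi3, Il31, Cntfr and Il11ra2 had 0 reads in all 6 samples, which allows up to 0.0931 CPM in the shallowest sample (counting error only), and Ctf2, Il27 and Il27ra had 0 to 6 reads. RNA of oncostatin M, a ligand of the Osmr product, was thus not detectable at this depth. Of the 3 genes tested, 2 were lower in Nfkbiz KO, where 18.4% of all tested genes were lower. Il31ra, the partner of Osmr in the IL-31 receptor, had 285 to 1377 reads but was listed at 0 TPM in every sample, so its reads were not assigned to the exons that TPM is based on. Its log2 fold change was -1.20 (adjusted p = 0.019, edgeR) and -0.45 without Ctrl replicate 1, which held the 1377 reads, and the call was lost in 5 of 13 alternative fits. Cntf, at 12.8% uniquely mapped reads, did not pass (log2 fold change -0.30, adjusted p = 0.63, edgeR).

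Downstream of gp130, 5 of 10 signal transducer genes passed the test, 2 higher and 3 lower, with a list median of -0.08 on the log2 scale. Over all tested genes 36.6% passed, 18.2% higher and 18.4% lower, and the counts of each list are to be read beside these shares. Stat3, the main transcription factor of the pathway, fell from 45.9 ± 3.08 to 31.7 ± 0.867 TPM (log2 fold change -0.63, adjusted p = 1.6e-06, edgeR). The kinase gene Jak2 had a log2 fold change of -0.38 and the adaptor gene Gab1 of 0.32. Among 7 feedback inhibitors, 1 was higher and 3 were lower, with a median of -0.07. Socs3, which binds gp130 and JAK kinases to end the signal, fell from 128 ± 1.66 to 65.1 ± 4.33 TPM (-1.07, adjusted p = 8.1e-08, edgeR). Cish at -0.63 and Pias3 at -0.56 fell too, and Socs2 rose by 0.71 on the log2 scale.

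Of 15 genes known as STAT3 targets, 13 were tested, 7 were lower and 1 was higher, with a median of -0.28. For this list and the next lists, the shares over all tested genes were 18.4% lower and 18.2% higher. The acute-phase gene Saa3 fell from 26.8 ± 3.30 to 4.22 ± 0.0718 TPM (log2 fold change -2.77, adjusted p = 3.9e-09, edgeR). Cebpd (-1.68) and Cebpb (-1.37), which encode C/EBP factors, and Bcl3 (-1.45), an IκB family gene, also fell more than 2-fold. Several of these genes are also known targets of NF-κB or IκBζ. Among 6 genes that govern shedding of receptors such as IL-6Rα, 3 were lower and 1 was higher, with a median of -0.11. The protease gene Adam17 had a log2 fold change of -0.18 and its regulators Rhbdf2 and Rhbdf1 of -0.30 and -0.23, against 0.36 for the protease inhibitor gene Timp3. Of 9 genes that act on cytokine mRNA stability, 4 were higher and 1 was lower, with a median of 0.16. Zc3h12a, whose product Regnase-1 degrades Il6 mRNA, fell by 0.48 on the log2 scale, while Zfp36, which destabilises cytokine mRNAs, rose by 0.41, Zc3h12c by 0.32 and Arid5a, which stabilises Il6 mRNA, by 0.20. In total 27 of 47 tested genes of these 6 lists passed, beside the 36.6% of all genes given above. Among the small changes named here, Rhbdf1 lost its call in 6 of 13 alternative fits, Adam17 in 5, Arid5a and Zc3h12c in 4 each, Gab1 in 3, and Jak2 and Rhbdf2 in 2 each, on the TPM scales.

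**Figure D5:**
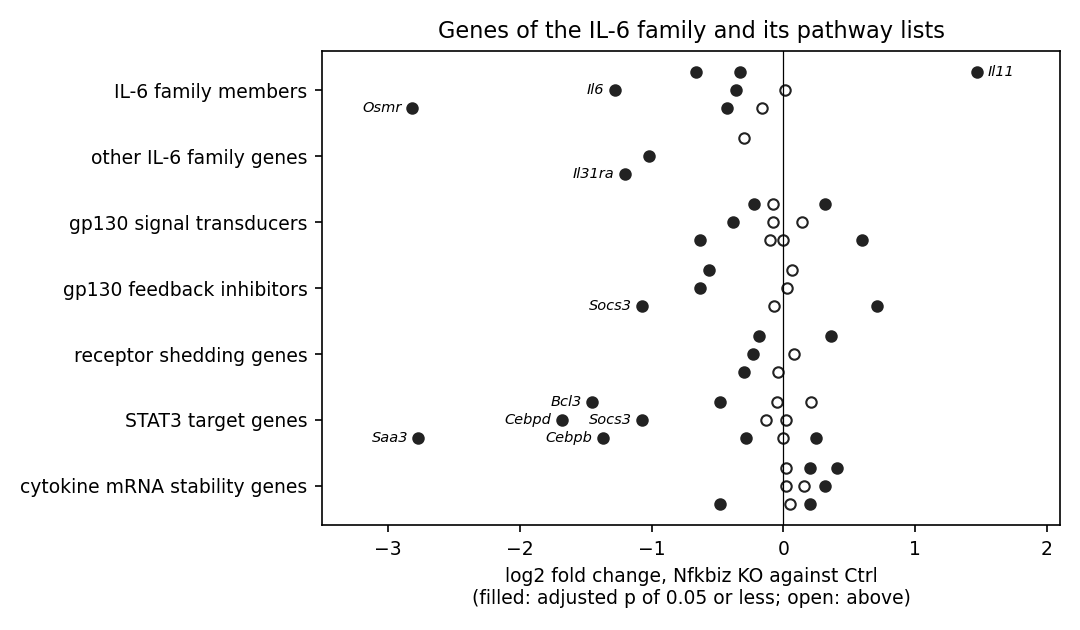
The log2 fold change of Nfkbiz KO against Ctrl for each tested gene (points) of the 10 members and 6 pathway lists; filled points have an adjusted p of 0.05 or less, and genes past 2-fold that the text describes are named. Named genes other than Il11 lie to the left of 0, with Osmr at -2.82 and Saa3 at -2.77 farthest from it.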

How the data were processed

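The authors mapped paired reads of 150 bases to the mouse genome in CLC Genomics Workbench, without using strand, and deposited 1 gene table per sample. The tables hold total and unique gene read counts, which include reads outside exons, and TPM and RPKM that the authors derived from exon reads. The labels give GRCm38 and the study's methods GRCm39. The files hold no coordinates, so positions are those of GENCODE vM39 (GRCm39). Counts were analysed in R 4.3.3 with edgeR 4.0.16 (TMM, filterByExpr with a minimum count of 10, quasi-likelihood test, Benjamini-Hochberg over 14419 genes), with checks on simulated data. Intervals come from the test's degrees of freedom. RPKM served only to count genes with reads but no exon signal (2105 to 2271 per sample). A floor of 3 reads equalled 0.0668 to 0.0931 CPM. The study's cut-off of 4 has no stated unit and was taken as TPM.

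Alternatives were DESeq2 1.42.0, RLE factors, no filter, unique reads, limma 3.58.1 on log2(TPM + 1) and log2(TPM + 0.1), a replicate block and each sample left out. Same-numbered samples had correlations of deviations of 0.0367, -0.0233 and 0.0256. Members and gene lists were chosen with earlier results of these data known. Named genes are the 10 members, Nfkbiz, the other IL-6 family genes, up to 4 passing genes per pathway list by absolute fold change, the 3 nearest profiles of each member past the study's cut-offs, and lineage markers. Some genes that this rule names are not reported here. Protein sequences were not analysed here.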

Additional observations from a re-analysis of the deposited data

How the results depend on the processing

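Il6, Il11, Osmr, Lif and Il6ra kept their direction and an adjusted p of 0.05 or less in all 13 alternative fits. The number of members that passed was 5 to 7 over these fits, against 7, and 5 to 6 as each sample was left out. Lifr was lost in 11 fits and Il11ra1 in 6. Il6st was gained without Ctrl replicate 3 alone (-0.24). Clcf1, near 0, ranged from -0.02 to 0.04 as samples were left out and was below 0 without Ctrl replicate 3 (-0.02) and without Nfkbiz KO replicate 2 (-0.01). On the log2(TPM + 1) scale, which compresses low values, Osmr was at -1.63, Lifr at -0.13 and Il11ra1 at -0.17. The number of members past the study's cut-offs was 2 in each of the 13 fits, 3 with no difference cut-off (Osmr added) and 4 with a fold of 1.5, an adjusted p of 0.1 and no difference cut-off (Lifr added). Without Ctrl replicate 1, 6 members passed, Lifr being lost. The log2(TPM + 1) and log2(TPM + 0.1) scales moved the median of all genes to 0.06 and 0.08. Pathway genes past the test were 18 to 28 over the fits, against 27, with 20 to 28 as samples were left out. Signal transducers past the test were 2 on the TPM scales, against 5, and shedding genes 1, against 4. Without any 1 of the Nfkbiz KO samples shedding genes were 2, and without Nfkbiz KO replicate 1 or 3 mRNA stability genes were 2, against 5. Calls over all tested genes were also fewer in these fits, against 5274 of 14419 in the main fit. They were 3803 of 14848, 3920 of 14707 and 3798 of 14684 without Nfkbiz KO replicate 1, 2 and 3. On the log2(TPM + 1) and log2(TPM + 0.1) scales they were 4331 and 4226 of 14419. The causes were not tested.

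The replicate numbers did not pair the samples by the correlations of their deviations. With the replicate block 6 members passed, 5 lower and 1 higher, Lifr being lost at an adjusted p of 0.059, and Il6 and Il11 stayed past the study's cut-offs. Pathway genes past the test were 26. With 1 sample left out, the remaining spread stands for the smaller group as well. Counts of 1 to 7 reads for Ctf1 set the limit of what depth shows.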
